A study of Mus musculus with 12 samples.

Results

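Tandem polyadenylation in genes with many annotated ends was examined in CD8+ T cells. Whippet, which cuts a gene into nodes at every annotated splice site, start and end and gives each node a fraction Psi (the share of reads that include it), lists each alternative end within a last exon as a node of type TE. The TE nodes of a gene were ordered along its strand from the most proximal, nearest to the start of the gene, to the most distal. All 1683 genes with 3 or more TE nodes on 1 strand were taken, with Ikzf1 left out, out of 4770 genes with at least 2. The members held 6176 of the 12351 TE nodes and of the 115403 events of every type in the table. The next class down, with exactly 2 TE nodes, held 3086 genes, and 1039 members lay just inside the limit with 3.

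The cells were OT-I CD8+ T cells, which carry a transgenic receptor for the SIINFEKL peptide of ovalbumin, on a C57BL/6J background. By the study's methods the OT-I animals were Rag1- or Rag2-deficient, bred in house or purchased, and of both sexes, and which deficiency a library had is not given in the labels. Their ages are stated differently in 2 places of the study and are not given here. The transferred cells went into wild-type C57BL/6J recipients, so that host CD8+ cells were present until the sort. Ag libraries (n = 5) came from recipients given the peptide with a control rat IgG. Ag+Costim libraries (n = 5) came from recipients given the peptide with agonist antibodies to CD134 (OX40) and CD137 (4-1BB), the 2 receptors of the tumour necrosis factor family that costimulate T cells. Naive libraries (n = 2) came from OT-I animals whose cells were neither transferred nor stimulated, so that Naive differs from both other groups in transfer as well as in antigen. Ag and Ag+Costim cells were sorted from spleen and lymph nodes on day 4 by the labels, which give no day for Naive. The study's methods give a slightly shorter time. RNA was made into libraries with SMART-Seq v4 and Nextera XT and read as single ends of 100 bases. The study calls its libraries biological replicates, while the labels do not say whether a library is 1 mouse, and p-values measure the spread between these libraries.

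Cleavage and polyadenylation end nearly every messenger RNA. The cleavage and polyadenylation specificity factor reads a hexamer, most often AAUAAA, a short way before the cut, and a second complex binds a U-rich or GU-rich stretch after it. Where 1 last exon holds several such sites, the choice among them sets the length of the 3′ untranslated region (3′ UTR), and with it the microRNA and protein binding sites the message carries, while the protein stays the same. Activated and proliferating T cells are known for a general preference for proximal sites.

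The libraries held between 24006053 (Ag replicate 4) and 49294934 (Ag+Costim replicate 3) counts, and the other 4 Ag libraries held between 42652628 and 45980125. The defining genes of CD8+ T cells were detected in all 12: Cd8a lay between 962 and 1224 CPM (counts scaled to the total of the library) in Ag and between 485 and 577 CPM in Ag+Costim, while Cd4 lay between 0 and 2.39 CPM. The 7 CD8+ T cell markers summed to between 7712 and 10258 CPM in Ag, between 3911 and 5367 CPM in Ag+Costim and between 10343 and 11014 CPM in Naive. The 5 erythroid genes summed to between 588 and 6720 CPM in Ag against between 14.0 and 210.4 CPM in Ag+Costim, and the 4 B cell genes to between 101.1 and 154.5 CPM against between 21.7 and 54.8 CPM. The 4 myeloid genes overlapped, at between 53.9 and 173.5 CPM in Ag and between 79.7 and 136.4 CPM in Ag+Costim. The part of these other cells in the positions below was not tested. In such bulk samples a smaller share of cells of a type and less RNA per cell cannot be told apart.

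The ends shown here are those of 6 genes. Of these, 3 stand for more proximal use by Psi in Ag+Costim than in Ag, 2 for more distal use, and 1 has its 3 ends within 5 bases. These directions rest on Psi, which has 1 value per group and no test. By the counts of transcripts, a second readout described below, none of the 6 was called. Each line gives the last 30 bases before an annotated end, 5′ to 3′ on the sense strand, from GENCODE vM21 transcripts on GRCm38 (mm10), and capitals mark AATAAA or ATTAAA. Nfatc3 lies on the plus strand of chromosome 8 and its windows are chr8:106128013-106128042, chr8:106128414-106128443 and chr8:106130508-106130537. Pik3cd lies on the minus strand of chromosome 4, with windows chr4:149650640-149650669, chr4:149649817-149649846, chr4:149649171-149649200, chr4:149649170-149649199 and chr4:149649168-149649197. Jarid2 lies on the plus strand of chromosome 13, with windows chr13:44920079-44920108, chr13:44920966-44920995 and chr13:44921614-44921643.
Nfatc3 end 1: gatctgatgacctctcacagtgctcagtga
Nfatc3 end 2: ttgatgatatttttaaaatagaactttttg
Nfatc3 end 3: gacatAATAAAcagtgacagatcaacagtc
Pik3cd end 1: cacaatgtgtccaaggataaccgacagtag
Pik3cd end 2: aggactgatctcttccagagctgaaatcgc
Pik3cd end 3: tgaaaagaAATAAAaacgtttttatgttct
Pik3cd end 4: gaaaagaAATAAAaacgtttttatgttctt
Pik3cd end 5: aaagaAATAAAaacgtttttatgttcttaa
Jarid2 end 1: actgattttgttttagcATTAAActgttca
Jarid2 end 2: atgttttaacaaaaaagaaaaaaagaaaaa
Jarid2 end 3: gtttaatAATAAAaagttttttggacattt
Glcci1 lies on the plus strand of chromosome 6, with windows chr6:8593483-8593512, chr6:8593592-8593621, chr6:8594042-8594071 and chr6:8597519-8597548. Ssbp3 lies on the plus strand of chromosome 4, with windows chr4:107048469-107048498, chr4:107048538-107048567 and chr4:107049665-107049694. Ythdc1 lies on the plus strand of chromosome 5, with windows chr5:86836625-86836654, chr5:86836628-86836657 and chr5:86836630-86836659.
Glcci1 end 1: ctatgcatttcatagtatgtctgacagatt
Glcci1 end 2: aatgtcttgctgtgttttgtcctatggaaa
Glcci1 end 3: tcaacatgtgtaaatgtggctttttttttt
Glcci1 end 4: atttaAATAAAgttattagtaaaactggaa
Ssbp3 end 1: accccaatcaacctctttgctttcttcttt
Ssbp3 end 2: aaaaaaaaggccaaaaaaaaaaaaaaaaaa
Ssbp3 end 3: gttttATTAAAgggacatcttttttccgca
Ythdc1 end 1: tttgtatgaAATAAAttgataaagattgac
Ythdc1 end 2: gtatgaAATAAAttgataaagattgacact
Ythdc1 end 3: atgaAATAAAttgataaagattgacactaa
In all 6 genes the most distal end had a hexamer starting between 23 and 26 bases before the end of the window. In Ythdc1 the same hexamer lies in all 3 windows, and in Pik3cd in the last 3. The first ends of Nfatc3 and Pik3cd coincide with the annotated stop codon, so that the transcript models that end there have no 3′ UTR. The second end of Ssbp3 closes on an unbroken run of A in the annotated transcript.

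Members had a median of 3 ends and at most 19: 1039 had 3 ends, 377 had 4, 162 had 5 and 105 had 6 or more. From first to last end they spanned a median of 972 bases. The ends were often very close, with a smallest gap of 10 bases or fewer in 981 of 1683 members (58.3%), and 1454 of 6176 nodes were 10 bases or shorter. When ends within 24 bases of a neighbour were merged, 887 members kept 3 or more ends, 553 kept 2 and 243 were left with 1. Of the nodes, 6082 (98.5%) ended exactly at an annotated transcript end and 5972 (96.7%) at the end of a complete protein-coding transcript. The 3′ UTR of these transcripts had a median length of 216 bases at the most proximal end, 643 bases at middle ends and 1370 bases at the most distal end. At 187 of the 1629 most proximal ends with a UTR length, the transcript stopped at the stop codon.

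The poly(A) signal became more frequent along the 3′ UTR. AATAAA or ATTAAA, searched on the sense strand in the last 40 bases, was present at 34.0% of 1600 most proximal ends with a sequence, 56.3% of 2765 middle ends and 75.6% of 1653 most distal ends of members. Genes with 2 ends had it at 53.3% of proximal and 76.7% of distal ends, and all 11933 TE nodes with a sequence at 60.3%. Among the most proximal ends of members at a stop codon the share was 1.89%, against 37.7% at those past it. Ends with the hexamer had a median Psi of 0.232 in Ag and 0.230 in Ag+Costim, and ends without it 0.116 and 0.151. The node with the highest Psi in Ag had a hexamer in 66.2% of members, against 51.7% of the other nodes. A match is a string of letters and not a site shown to be used, and Psi was described here without a test.

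**Figure D1:**
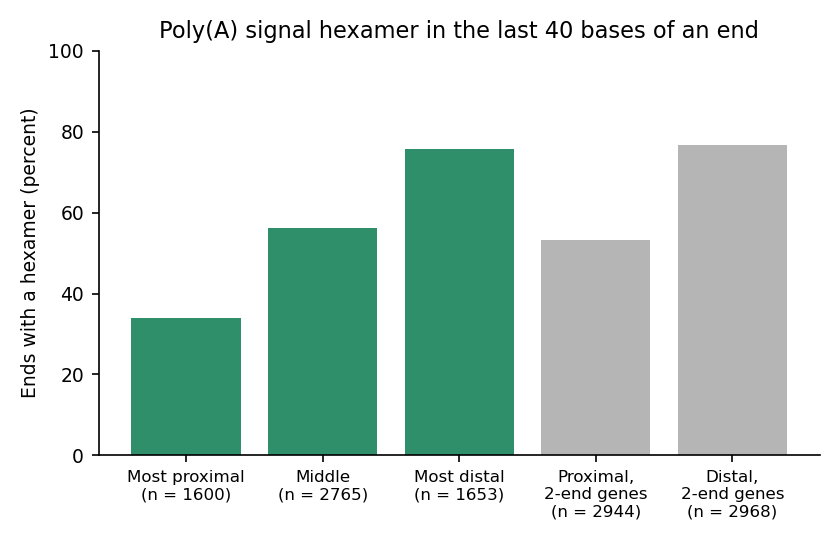
Bars give the percent of annotated ends with AATAAA or ATTAAA in their last 40 bases, by the place of the end in its gene, for genes with 3 or more ends (green) and with 2 (grey), and n counts the ends with a sequence. The share was 34.0% at the most proximal, 56.3% at middle and 75.6% at the most distal ends.

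To ask whether the use of tandem ends differed with costimulation, the position of each member was computed as the mean rank of its ends weighted by Psi, from 0 (all use at the most proximal end) to 1 (all at the most distal). Psi has 1 value per group, with no replicates and no read depth given here, so these differences are descriptions with no test, and a difference of more than 0.05 was counted as a shift. With costimulation 487 members (28.9%) shifted towards the proximal end and 296 (17.6%) towards the distal end, and 900 lay within 0.05. Over all 4770 genes with 2 or more ends 25.9% shifted towards proximal and 18.5% towards distal, and over genes with 2 ends 24.3% and 19.0%, so that the members' shares lay close to the background. The median difference, Ag+Costim minus Ag, was -0.0054 in members (quartiles -0.064 and 0.025) and -0.0011 over all 4770. The median position was 0.472 in Ag and 0.442 in Ag+Costim.

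The values of the single nodes, from which the position is made, show which ends differed. The most proximal node averaged a Psi of 0.323 in Ag and 0.342 in Ag+Costim, and it was higher by more than 0.05 in 491 members and lower in 321. The most distal node averaged 0.255 and 0.233, and it was higher in 239 and lower in 401. Middle nodes averaged 0.307 and 0.310. The leading node, the one with the highest Psi, differed between the groups in 323 members (19.2%), 185 of which had a more proximal leader with costimulation and 138 a more distal one. In genes with 2 ends it differed in 9.72%. Members have more nodes among which the leader can change, so these shares are not directly comparable. Members that used 3 or more ends above 5% numbered 873 in Ag and 969 in Ag+Costim.

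The balance is given here by the distance between the ends, as a description with no test. Members whose ends spanned 24 bases or fewer were even, with 58 shifts towards proximal and 62 towards distal among 219. Those spanning over 24 and up to 200 bases had 51 and 36 of 197. Those spanning over 200 and up to 1000 bases had 128 and 71 of 438, those over 1000 and up to 3000 bases 150 and 84 of 510, and those over 3000 bases 100 and 43 of 319. In genes with 2 ends, the shifts towards proximal and towards distal in the same 5 classes, from the shortest span, were 280 and 252 of 1166, 79 and 68 of 353, 164 and 113 of 714, 164 and 111 of 630, and 62 and 43 of 223. The proximal share was thus the larger in every class of genes with 2 ends, and in every class of members but the shortest. In bases, the Psi-weighted end lay over 100 bases closer in 286 members and over 100 bases farther in 140. After merging of close ends, 419 of 1440 members (29.1%) shifted towards proximal and 185 (12.8%) towards distal, against 26.5% and 15.5% of the 3361 genes of any number of ends. Members with 6 or more ends had 32 shifts towards proximal and 5 towards distal among 105. Leaving out members with an end at the stop codon gave 426 and 268 of 1489.

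**Figure D2:**
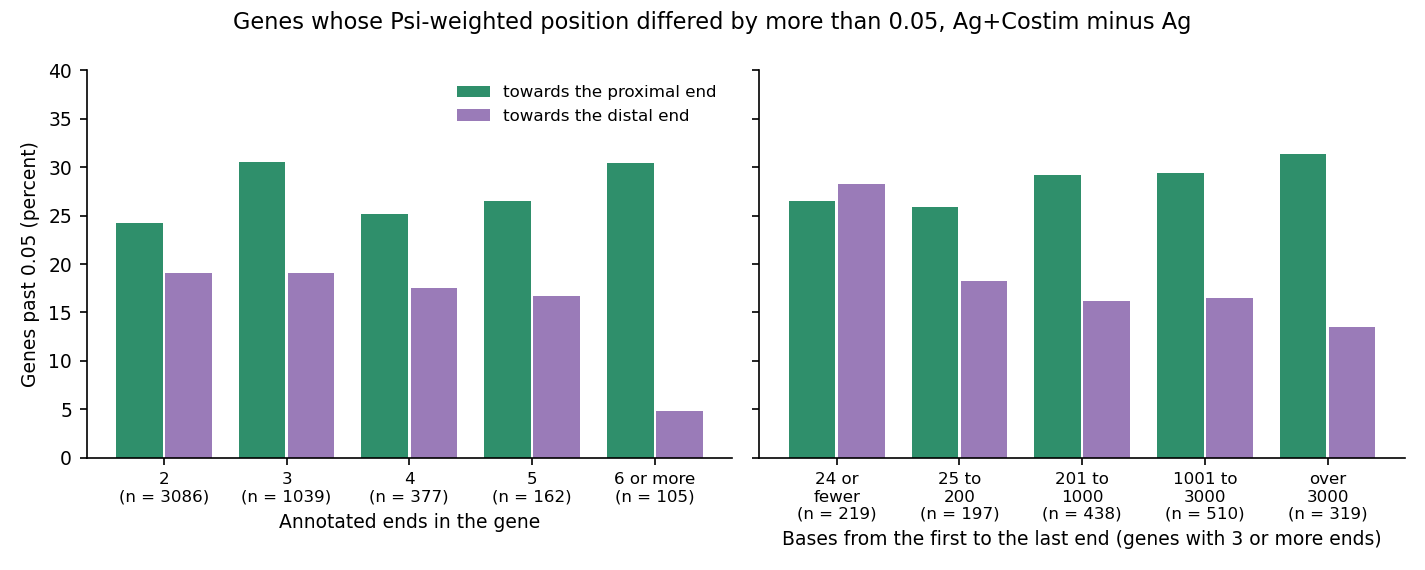
Bars give the percent of genes whose Psi-weighted position was more than 0.05 lower (green, towards the proximal end) or higher (purple, towards the distal end) in Ag+Costim than in Ag, by the number of annotated ends and, for genes with 3 or more, by the bases between the first and the last. Members with 6 or more ends had 30.5% against 4.76%, and members whose ends lay within 24 bases 26.5% against 28.3%.

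The share of members that shifted differed with expression level, again as a description with no test. Among members with a mean log2 CPM from 1 to 3, 77 shifted towards proximal and 45 towards distal (38.3% and 22.4%). From 3 to 5, 144 of 396 shifted towards proximal and 69 towards distal. From 5 to 7 the counts were 142 and 84 of 547, and above 7 they were 43 and 26 of 263. At or below 1 they were nearly even, at 74 and 69 of 255. Shifts in either direction were thus least frequent in the most expressed genes. The part of read depth in this was not tested.

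Among members with a mean log2 CPM above 3, the 10 with the largest shifts towards the proximal end were Spsb3, Lrif1, Als2cl, Tbcel, Spg20, Nagk, Tnpo2, Lgals8, Jarid2 and Cfap97. They were chosen by the difference itself. Tbcel, a relative of a tubulin-folding cofactor with ends over 3473 bases, had a Psi of 0.958 at its most distal end in Ag and 0.289 in Ag+Costim. Its end 3 stood at 0.023 and 0.342 and its end 1 at 0.021 and 0.238, and the weighted end lay 3366 bases past the first in Ag and 1821 bases in Ag+Costim. Tnpo2, a nuclear import receptor, had its most proximal end at 0.0042 in Ag and 0.273 in Ag+Costim, and its gene expression was higher with costimulation (log2 fold change 1.89 ± 0.17 SE, edgeR adjusted p = 7.32e-07). Lrif1, which binds nuclear receptors, had its end 2 at 0.316 in Ag and 0.759 in Ag+Costim and its end 3, which lies 3 bases on, at 0.654 and 0.0142. Jarid2, an accessory subunit of Polycomb repressive complex 2, had Psi values of 0.041, 0.340 and 0.622 from first to last end in Ag and 0.392, 0.356 and 0.254 in Ag+Costim. Its expression was 27.1 to 32.1 CPM in Ag and 37.7 to 57.5 CPM in Ag+Costim, with no overlap (log2 fold change 0.67 ± 0.12 SE, edgeR adjusted p = 0.000327).

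Several of the 10 shifted by only a few bases. Spsb3, a substrate receptor of ubiquitin ligases, had its ends within 12 bases and its first end at 0.415 in Ag and 0.904 in Ag+Costim. The ends of Als2cl spanned 6 bases, those of Spg20 11 and those of Cfap97 4. Nagk, a sugar kinase, exchanged 2 ends that lie 2 bases apart: the first stood at 0.199 and 0.982 and the second at 0.798 and 0.0117. Its weighted end lay 12.1 bases past the first in Ag and 15.2 bases in Ag+Costim, so that the rank and the distance differ in sign. In Lgals8, galectin-8, the distance went from 1026 to 933 bases.

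The 10 largest shifts towards the distal end were in Inpp5f, Glcci1, Ssbp3, Ankra2, Focad, Kif2a, Eif2ak4, Aen, Uap1 and Rpgrip1. Inpp5f, a phosphoinositide phosphatase, had Psi values of 0.555, 0.176 and 0.273 along 151 bases in Ag and 0.0037, 0.0041 and 0.995 in Ag+Costim. Glcci1, a glucocorticoid-induced gene, had its last end at 0.299 in Ag and 0.984 in Ag+Costim, and its weighted end lay 1265 and 3900 bases past the first. Its level was low, at 10.6 ± 1.4 CPM in Ag and 6.36 ± 1.45 CPM in Ag+Costim (SD, n = 5 each), and its ends overlap another gene on each strand. Ssbp3, a partner of LIM-domain transcription complexes, had its last end at 0.320 and 0.940. It was lower with costimulation, at 63.4 to 110.3 CPM in Ag and 23.7 to 42.1 CPM in Ag+Costim (log2 fold change -1.47 ± 0.17 SE, edgeR adjusted p = 9.93e-06). Kif2a, a kinesin that shortens microtubules, had its first end at 0.613 and 0.175, with the weighted end at 452 and 1283 bases.

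**Figure D3:**
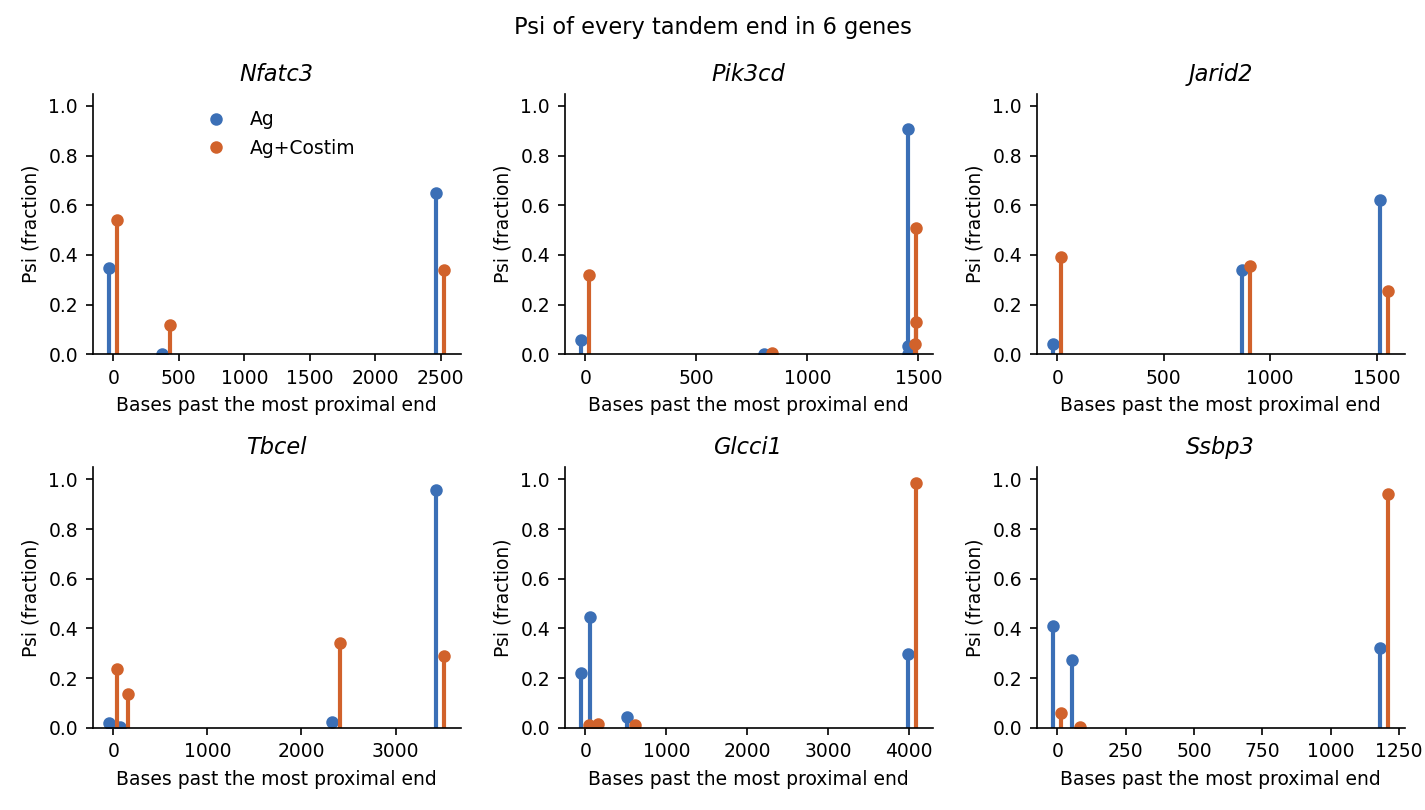
Each panel shows 1 gene, with bases past its most proximal annotated end on the x axis and Psi (a fraction, 1 value per group) on the y axis, for Ag (blue) and Ag+Costim (orange) drawn side by side at each end. In Nfatc3, Pik3cd, Jarid2 and Tbcel the last end was lower in Ag+Costim, and in Glcci1 and Ssbp3 it was higher.

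Here too some shifts spanned few bases. Ankra2, Focad and Eif2ak4 had their ends within 5, 7 and 3 bases. Aen, a nuclease induced by p53, had its first end at 0.731 in Ag and 0.145 in Ag+Costim and its second, 3 bases on, at 0.224 and 0.817. Its weighted distance went from 129.5 to 115.0 bases, against the direction of its rank. Uap1, an enzyme that makes UDP-N-acetylglucosamine, moved by about 1 base on average, from 0.327 to 1.46. Rpgrip1, a ciliary protein, lay between 648 and 1034 bases and was lower with costimulation (log2 fold change -2.04 ± 0.31 SE, edgeR adjusted p = 8.29e-05).

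The 3 members with the most ends above a mean log2 CPM of 3 were Tcf4, Crem and Ablim1, with 19, 16 and 12. Tcf4, an E protein transcription factor, had a position of 0.370 in Ag and 0.319 in Ag+Costim, and Crem, a cAMP-responsive factor, 0.198 and 0.215. Ablim1, an actin-binding LIM protein, had a position of 0.553 and 0.487, and its weighted end lay 2554 and 1771 bases past the first. In Ablim1 end 10 was at 0.237 in Ag and 0.0555 in Ag+Costim, and end 8 at 0.00012 and 0.0993. Ablim1 was among the most expressed members, at 391 ± 44.6 CPM in Ag and 573 ± 94.7 CPM in Ag+Costim (SD, n = 5 each).

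Of the 94 T cell signalling genes listed, 22 were members. Of these 11 shifted towards the proximal end, 1 towards the distal end and 10 lay within 0.05, with a median difference of -0.047 against -0.0054 over all members, of which 28.9% shifted towards proximal and 17.6% towards distal. By the counts of transcripts, a second readout described below, 10 of the 21 with a value lay towards proximal with costimulation, and the median difference was 6.4e-05. Of these 21, 0 were called in the test of that readout, against 1.18% towards proximal and 0.696% towards distal of all 3738 genes tested. Pik3cd, the delta catalytic subunit of phosphoinositide 3-kinase, had its last end at 0.907 in Ag and 0.507 in Ag+Costim and its first, at the stop codon, at 0.058 and 0.319. Nfatc3, a calcineurin-dependent transcription factor, had its last end at 0.651 and 0.341 and its first, also at the stop codon, at 0.347 and 0.542. Tgfbr1, a receptor kinase for transforming growth factor beta, had its last end at 0.880 and 0.597, with the weighted end at 3579 and 2466 bases. Mapk8, the kinase JNK1, had its second end at 0.021 and 0.393. The level of Mapk8 was low, at 6.80 ± 1.41 CPM in Ag and 5.29 ± 1.33 CPM in Ag+Costim (SD, n = 5 each). Dock11, an exchange factor for Cdc42, had its first end at 0.086 and 0.312. Traf3, an adaptor of costimulatory receptors, shifted among ends within 9 bases. Expression of 13 of the 22 was higher with costimulation and of 1 lower (edgeR, where 26.6% of all 18817 genes tested were higher and 26.5% lower), against 10 and 5 with upper-quartile scaling.

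Per library, Pik3cd lay at 178.4, 198.3, 201.3, 238.7 and 211.3 CPM in Ag replicates 1 to 5 and at 387, 535.9, 441.4, 510 and 416.1 CPM in Ag+Costim. All Ag+Costim values were above all Ag values (log2 fold change 1.16 ± 0.11 SE, edgeR adjusted p = 9.77e-07). Nfatc3 lay at 73.3, 72.5, 72.1, 87.7 and 88.6 CPM in Ag and at 130.1, 181.6, 130.8, 161 and 149.8 CPM in Ag+Costim, again with no overlap (log2 fold change 0.93 ± 0.11 SE, edgeR adjusted p = 7.05e-06).

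Of the 82 transcription and chromatin genes listed, 21 were members, and 11 shifted towards proximal and 3 towards distal, with a median of -0.061. Over all 1683 members the counts were 487 and 296. Over all 4770 genes with 2 or more ends the shares were 25.9% and 18.5%. By the counts of transcripts 16 of the 20 listed members with a value lay towards proximal, with a median of -0.029. The share of all members that lay towards proximal by this readout is not given here for any list, so such counts have no background. In the test of that readout 2 of the 20 were called, against 1.18% towards proximal and 0.696% towards distal of all 3738 genes tested. Besides Jarid2 the listed members that shifted in Psi included the class IIa deacetylase Hdac7. Its 6 ends lie within 45 bases, with the first at 0.119 in Ag and 0.531 in Ag+Costim. Atf2, a leucine zipper factor, had a position of 0.705 and 0.479. Mef2a, a MADS-box factor, had its last end at 0.690 and 0.411, and Nr3c1, the glucocorticoid receptor, a position of 0.681 and 0.483. Ets1, a T cell transcription factor, went the other way: its last end stood at 0.803 in Ag and at nearly all of the Psi in Ag+Costim and its first, 3 bases past the stop codon, at 0.197 and 7.12e-05. Expression of 9 of the 21 was higher and of 6 lower (edgeR), against 9 and 8 with upper-quartile scaling. Of all 18817 genes tested by edgeR, 26.6% were higher and 26.5% lower.

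Of the 98 RNA binding and processing genes listed, 31 were members, with 10 shifts towards proximal, 4 towards distal and a median of -0.021. Over all 1683 members the counts were 487 and 296. Over all 4770 genes with 2 or more ends the shares were 25.9% and 18.5%. By the counts of transcripts 21 of the 31 listed members lay towards proximal, with a median of -0.038. Here too no share of all members is given to set this count against. Of the 31, 0 were called, where 1.18% of all 3738 genes tested were called towards proximal and 0.696% towards distal. Pum2, which binds the 3′ UTRs of other messages, had its first end at 0.0015 in Ag and 0.248 in Ag+Costim. Ptbp3, a polypyrimidine tract binding protein, had its second end at 0.155 and 0.372, with the weighted end at 3629 and 2234 bases. Mbnl1, a regulator of splicing, had its last end at 0.815 and 0.526. Ythdc1, a nuclear reader of m6A, had its 3 ends at 0.052, 0.159 and 0.790 in Ag and 0.174, 0.476 and 0.354 in Ag+Costim, over 5 bases. Rc3h2, the RNA-binding ubiquitin ligase Roquin-2, had its weighted end at 3053 and 3050 bases. Expression of 21 of the 31 was higher and of 3 lower (edgeR), against 16 and 5 with upper-quartile scaling. Of all 18817 genes tested by edgeR, 26.6% were higher and 26.5% lower. Of the 53 ubiquitin and vesicle traffic genes listed, 8 were members and 1 shifted, towards proximal: Fbxw11, an F-box protein of an SCF ubiquitin ligase, with its first end at 0.152 and 0.473. By the counts of transcripts 3 of the 7 with a value lay towards proximal, with a median of 0.00059, and 0 were called. Expression of 4 of the 8 was higher and of 2 lower (edgeR), against 4 and 3 with upper-quartile scaling.

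A second readout gave a value per library. The deposited counts of each annotated transcript were put in the TE node that holds its 3′ end, and the position was weighted by these counts. StringTie shares reads over whole transcripts, so that this readout also moves with exons away from the 3′ end. Of the 1683 members, 1478 had transcripts in at least 2 nodes and a mean of 20 or more assigned counts. By limma with Benjamini-Hochberg adjustment over 3738 genes, 29 members fell in position (towards proximal) and 12 rose (towards distal), against a background of 1.18% and 0.696% of all genes tested. At an unadjusted p below 0.05 the counts were 124 and 105. The median difference was -0.0025 in members and -0.00063 over all genes tested. The mean position over members lay between 0.688 and 0.714 in the Ag libraries and between 0.686 and 0.692 in the Ag+Costim libraries, which overlap.

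The 29 calls towards proximal moved by more than 1.5 times when 1 of 8 libraries was left out: 19, 16, 17 and 18 were called without Ag replicates 1, 3, 4 and 5, and 19, 15, 17 and 16 without Ag+Costim replicates 1, 2, 3 and 5. The 12 calls towards distal became 7 and 6 without Ag replicates 2 and 5, and 6, 5 and 7 without Ag+Costim replicates 1, 3 and 5. Both readouts come from the same libraries. Of the 41 called members 22 had the same sign in Psi, and of the 671 tested members that shifted by more than 0.05 in Psi 383 (57.1%) had the same sign in transcript counts. Across the 1478 members Spearman's rho of the 2 differences was 0.10, a description over genes, which are not independent.

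Most of the shifts named from Psi were not called in the counts of transcripts. Of the 20 genes with the largest Psi differences 19 were tested, 8 had the same sign in both readouts and 1 was called by limma, Focad, with the opposite sign. Pik3cd lay between 0.722 and 0.878 in Ag and between 0.774 and 0.894 in Ag+Costim, which overlap (difference 0.04 ± 0.03 SE, limma adjusted p = 0.68). Nfatc3 lay between 0.985 and 0.996 in Ag and between 0.913 and 0.989 in Ag+Costim (difference -0.02 ± 0.01 SE, limma adjusted p = 0.60). Jarid2 lay between 0.929 and 1 in Ag and between 0.731 and 1 in Ag+Costim (difference -0.11 ± 0.08 SE, limma adjusted p = 0.64). In all 3 genes the libraries of the 2 groups overlapped. For Tbcel, Ssbp3 and Glcci1 the limma adjusted p-values were 1.00, 1.00 and 0.34. Pum2 lay between 0.751 and 0.801 in Ag and between 0.404 and 0.744 in Ag+Costim, with no overlap (difference -0.24 ± 0.06 SE, limma adjusted p = 0.10).

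The 5 largest falls were in Depdc5, Vps8, Cbfa2t3, Pcbp3 and Mink1. Depdc5, a subunit of the GATOR1 complex that restrains mTORC1, lay at 0.980, 0.977, 0.691, 0.963 and 0.900 in Ag replicates 1 to 5 and at 0.0688, 0.0215, 0.0372, 0.0180 and 0.0302 in Ag+Costim. The groups did not overlap, and Naive lay with Ag+Costim, at 0.0424 and 0.0753 (difference -0.87 ± 0.05 SE, limma adjusted p = 1.44e-05). Psi put Depdc5 close to the proximal end in both groups, at a position of 0.060 in Ag and 0.019 in Ag+Costim. Mink1, a kinase of the MAP4K family, lay at 0.750, 0.737, 0.721, 0.743 and 0.742 in Ag and at 0.265, 0.553, 0.226, 0.303 and 0.279 in Ag+Costim (difference -0.41 ± 0.05 SE, limma adjusted p = 0.0043). Here Psi had the same direction: end 2 stood at 0.031 in Ag and 0.420 in Ag+Costim and end 3 at 0.781 and 0.421. Mink1 expression rose from 2.24 to 6.29 CPM in Ag to 29.5 to 40.4 CPM in Ag+Costim (log2 fold change 3.23 ± 0.25 SE, edgeR adjusted p = 2.08e-07).

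Vps8, a subunit of the endosomal CORVET complex, was at 1 in every Ag library and between 0 and 0.702 in Ag+Costim, over ends within 8 bases (limma adjusted p = 0.029). Cbfa2t3, a transcriptional corepressor, lay between 0.989 and 1 in Ag and between 0.289 and 0.906 in Ag+Costim (limma adjusted p = 0.033). Pcbp3, a poly(C)-binding protein, overlapped between the groups, from 0.307 to 0.826 in Ag and from 0 to 0.327 in Ag+Costim, over ends within 3 bases (limma adjusted p = 0.042). In these 3 genes the Psi position was higher in Ag+Costim, at 0.499 against 0.409, 0.186 against 0.169 and 0.145 against 0.128. For Cbfa2t3 the sign depended on the scale: its Psi-weighted end lay 586 bases past the first in Ag and 414 bases in Ag+Costim. Its level was low in Ag, at 4.05 ± 1.31 CPM against 15.7 ± 8.29 CPM in Ag+Costim (SD, n = 5 each).

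The 5 largest rises were in Rtn4, Mpp6, R3hdm2, Abhd18 and 2310035C23Rik. Rtn4, the membrane protein also called Nogo, lay at 0.508, 0.563, 0.602, 0.5 and 0.536 in Ag and at 0.899, 0.851, 0.950, 0.841 and 0.796 in Ag+Costim (difference 0.33 ± 0.03 SE, limma adjusted p = 0.00063). The groups did not overlap, and Naive lay between them at 0.782 and 0.761. In Psi the second end of Rtn4 led in both groups, at 0.994 and 0.912. Mpp6, a scaffold protein of the membrane-associated guanylate kinase family, lay between 0.322 and 0.440 in Ag and between 0.439 and 0.840 in Ag+Costim, which overlap (limma adjusted p = 0.046). R3hdm2 lay between 0.492 and 0.512 in Ag and between 0.534 and 0.908 in Ag+Costim, Abhd18 between 0.468 and 0.742 and between 0.864 and 0.944, and 2310035C23Rik between 0.510 and 0.802 and between 0.833 and 0.982. Their limma adjusted p-values were 0.046, 0.048 and 0.045. Ends 3 to 7 of R3hdm2 lie 640 to 675 bases past its first, and with ends within 24 bases merged R3hdm2 had no value in the test. In bases the Psi-weighted end of R3hdm2 lay closer with costimulation, at 546 in Ag+Costim against 622 in Ag. Of the 10 genes, Depdc5, Mink1 and Rtn4 stayed called whichever of the 12 libraries was left out, and the other 7 in 1 to 3 of the 12. On the logit scale Pcbp3, Mpp6, R3hdm2 and 2310035C23Rik had limma adjusted p-values of 0.087, 0.065, 0.090 and 0.12. The rest of the 10 stayed called on that scale.

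**Figure D4:**
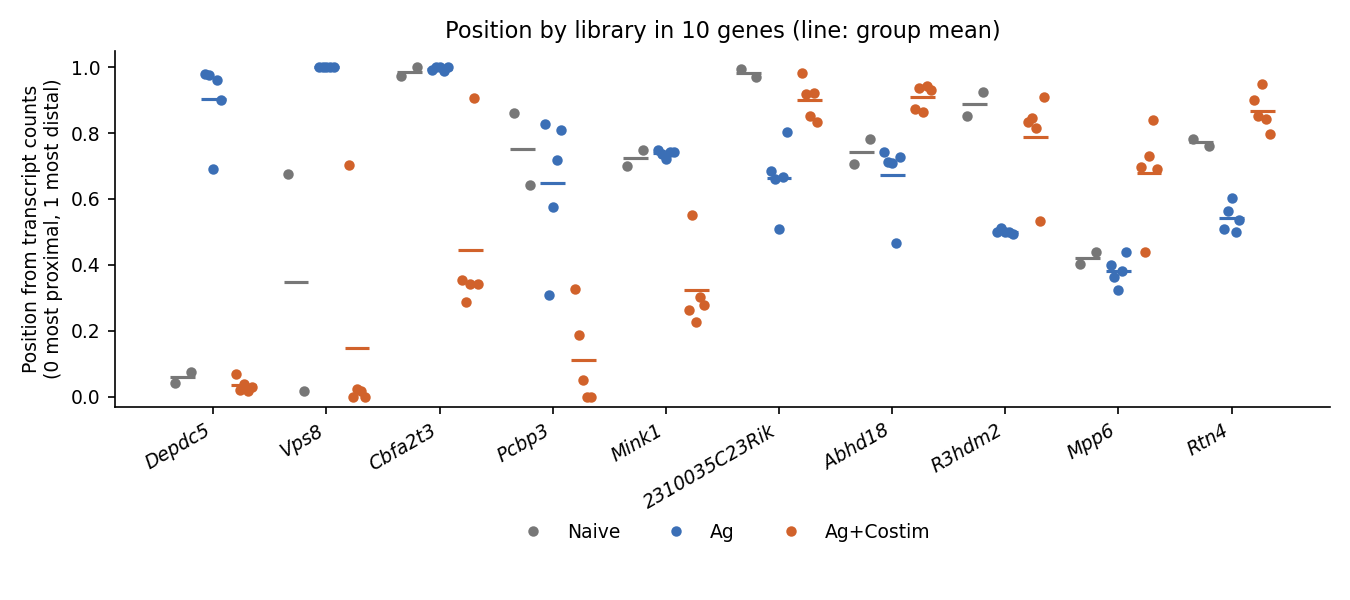
Each point is 1 library and each line a group mean, with the position from transcript counts (0 most proximal end, 1 most distal) on the y axis for Naive (grey, n = 2), Ag (blue, n = 5) and Ag+Costim (orange, n = 5). Depdc5 lay between 0.691 and 0.980 in Ag and between 0.0180 and 0.0688 in Ag+Costim, and Rtn4 between 0.5 and 0.602 and between 0.796 and 0.950.

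Among the 22 called members with the same sign in both readouts were Phc3, a Polycomb protein, with a transcript position difference of -0.38 and a Psi difference of -0.15, Whsc1l1, a histone methyltransferase, with -0.28 and -0.12, and Clasp1, which stabilises microtubules, with -0.20 and -0.20. Klf13, a zinc finger factor, had 0.065 and 0.075 towards the distal end, and Ap2b1, a clathrin adaptor subunit, 0.12 and 0.12. Focad went opposite ways, with -0.25 by transcript counts and 0.43 by Psi. The transcription and chromatin list held 2 called members, Foxp1 and Whsc1l1, both towards proximal, where 1.18% of all 3738 genes tested were called towards proximal. Whsc1l1 and Klf13 stayed called whichever of the 12 libraries was left out, while Foxp1 stayed called in 7 of the 12, Phc3 in 5, Ap2b1 and Focad in 4 and Clasp1 in 3. On the logit scale Whsc1l1 and Foxp1 were called, while Phc3, Clasp1, Klf13, Ap2b1 and Focad had limma adjusted p-values of 0.089, 0.090, 0.10, 0.15 and 0.11. All these except Focad were chosen after their values were seen.

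Ag against Naive, which shares its Ag libraries with the comparison above, was tested in the same limma fit. Of 1462 members, 21 fell in position and 11 rose in Ag, against 1.11% and 0.863% of the 3709 genes tested. On the logit scale 13 fell, in bases 20 rose, and without Ag replicate 3 the rises were 7. Of the 10 genes with the largest falls and rises above, 4 were called here too, each opposite to its change with costimulation. Depdc5 rose by 0.84 from Naive to Ag (limma adjusted p = 7.61e-05), to 0.902 ± 0.122 (SD, n = 5). Rtn4 fell by 0.23 (limma adjusted p = 0.016), R3hdm2 fell by 0.39 (limma adjusted p = 0.037) and 2310035C23Rik fell by 0.32 (limma adjusted p = 0.036). These opposite signs rest on Ag libraries that both comparisons share. Mink1 lay at 0.739 ± 0.0107 in Ag, and the Naive values of Mink1, 0.700 and 0.750, overlapped those of Ag.

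Gene expression was tested with edgeR (quasi-likelihood) in 18817 genes. Of 1662 members tested, 578 (34.8%) rose and 464 (27.9%) fell with costimulation, where 26.6% of all genes rose and 26.5% fell. Upper-quartile scaling gave 478 and 596 members, and 4056 and 6338 of all 18817 genes. It moved the median over all genes from -0.05 to -0.24 (log2 fold change). The members' median lay above that of all genes under both scalings (0.07 and -0.13). Of the 480 members that shifted towards proximal, 205 rose and 107 fell, with a median log2 fold change of 0.23. Of the 293 that shifted towards distal, 95 rose and 87 fell (median 0.02), and of the 889 within 0.05, 278 rose and 270 fell (median 0.00396). With upper-quartile scaling the counts were 174 and 136, 78 and 108, and 226 and 352, and the 3 medians were 0.04, -0.17 and -0.19.

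More genes of the 3′ end machinery rose than fell with costimulation. Of the 21 listed, 4 were members themselves, none of which shifted by more than 0.05. By the counts of transcripts 0 of these 4 lay towards proximal, with a median difference of 0.041, and 0 were called. All 21 were tested for expression, and 11 rose and 1 fell, where 26.6% of all 18817 genes tested rose and 26.5% fell. With upper-quartile scaling 9 of the 21 rose and 1 fell, where 4056 of all genes rose and 6338 fell. The median log2 fold change of the 21 was 0.25, against 0.058 with upper-quartile scaling. Sympk, the scaffold symplekin, had the largest change, from 6.03, 8.84, 8.53, 4.47 and 7.12 CPM in Ag replicates 1 to 5 to 61, 85.2, 75.6, 69.8 and 68.5 CPM in Ag+Costim. It stood at 43.0 and 47.2 CPM in Naive, above every Ag library (log2 fold change 3.36 ± 0.17 SE, edgeR adjusted p = 1.43e-08). Cpsf1 and Cpsf2, subunits of the cleavage and polyadenylation specificity factor, rose by log2 fold changes of 1.82 ± 0.12 and 1.58 ± 0.10 SE (edgeR adjusted p = 5.77e-08 and 5.15e-08). Cstf2, the RNA-binding subunit of the cleavage stimulation factor, rose from between 49.8 and 66.8 CPM to between 114.2 and 176.5 CPM (log2 fold change 1.30 ± 0.12 SE, edgeR adjusted p = 7.25e-07). Ssu72, a phosphatase, fell by 0.40 on the log2 scale (edgeR adjusted p = 0.0026), and is named as the only one that fell.

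**Figure D5:**
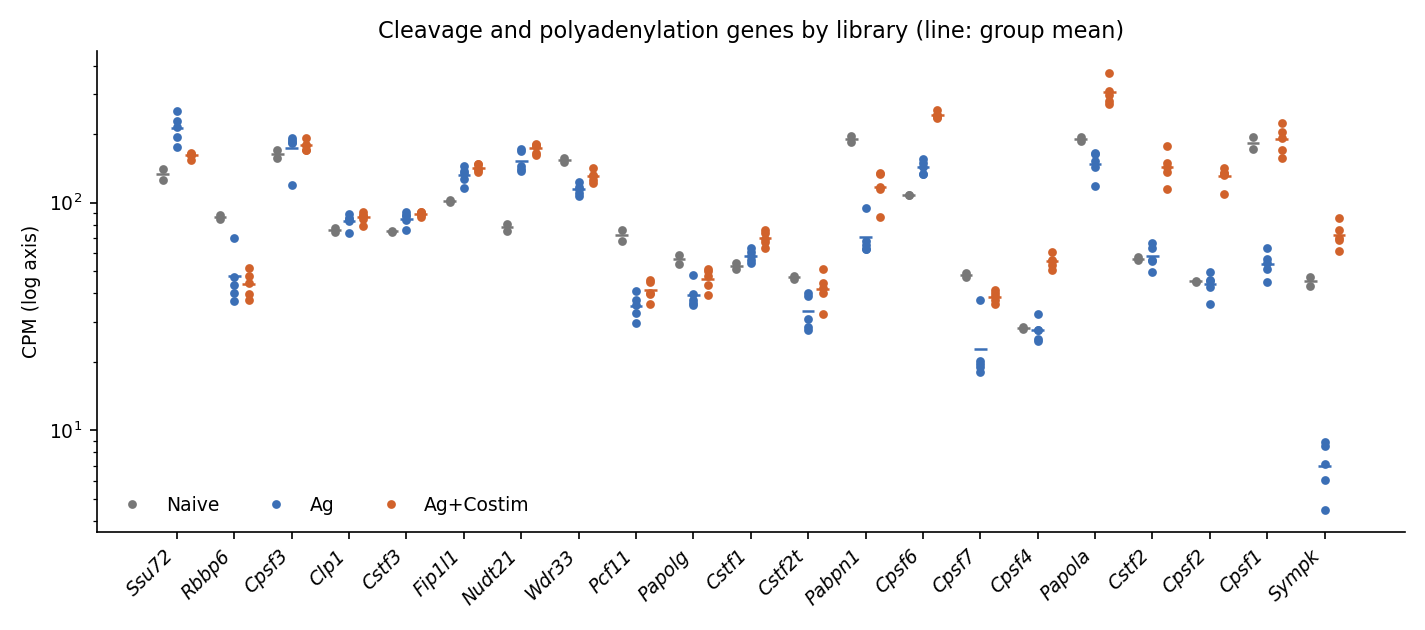
Each point is 1 library and each line a group mean, with gene expression in CPM on a log axis, for the 21 listed genes of the 3′ end machinery in Naive (grey, n = 2), Ag (blue, n = 5) and Ag+Costim (orange, n = 5), ordered by fold change. Sympk lay between 4.47 and 8.84 CPM in Ag and between 61.0 and 85.2 CPM in Ag+Costim.

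A same-strand neighbour overlapped the region of ends in 115 members and an opposite-strand gene in 342, where the counting of these unstranded libraries cannot tell them apart. In 98 members the ends lay in more than 1 block, and in 101 the Psi values summed to over 1.5 in Ag, so that more than 1 set of ends entered a single position. Among the genes named, Abhd18 and Crem had Psi sums of 2.01 and 3.04.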

How the data were processed

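Poly(A) RNA of 12 libraries was read by the authors, who per the submitters' processing notes used HISAT2 2.1.0, SAMtools 1.9, StringTie 2.1.0 and the mm10 build. Counts per gene and per transcript were deposited by the authors as StringTie output, which derives them from coverage. Unannotated loci held 0.0508% to 0.121% of a library and were left out. Psi, a fraction, was computed by the authors with Whippet (version not given in the sources used here), 1 value per group, and how replicates were combined is not stated. The columns of the authors' own comparison (Psi difference and its probability) and the event complexity and entropy were not used.

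Positions, distances and hexamers were computed with Python 3.11.15 and GENCODE vM21. All 1683 members matched a gene identifier. Genes were tested with edgeR 4.0.16 (TMM, filterByExpr) and positions with limma 3.58.1, both with all 12 libraries in the fit, at an adjusted p below 0.05. Tested on simulated data, edgeR called 180 of 200 changed genes (17620 genes) and limma 150 of 200 changed positions (3728 genes), with 5 false calls each. The simulated counts were drawn independently with the same fixed dispersion throughout, and changes were planted only in genes above a minimum level. The sharing of reads between transcripts by StringTie was not simulated, so these rates need not hold for the real positions. DESeq2 1.42.0 was an alternative. Genes were named by rule: the 10 lowest and 10 highest Psi position differences above a mean log2 CPM of 3, the 5 largest rises and falls called by limma, the 3 genes with the most ends, up to 6 members per list past 0.05 (1 of them is not reported here), and 4 machinery genes. The members and lists were chosen with earlier results of these data known.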

Additional observations from a re-analysis of the deposited data

Results flagged for a closer look

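Single libraries stood apart from the other 4 of their group in 6 of the 10 genes named for their transcript position: Depdc5 at 0.691 in Ag replicate 3, Vps8 at 0.702 in Ag+Costim replicate 1, Cbfa2t3 at 0.906 in Ag+Costim replicate 4, Mink1 at 0.553 in Ag+Costim replicate 2, Abhd18 at 0.468 in Ag replicate 4 and R3hdm2 at 0.534 in Ag+Costim replicate 4. In each the gap to the nearest other library was more than 0.710 of the range of the group. The total count of Ag replicate 4, 24006053, stood apart from the other Ag libraries in the same way. Chance marks about 1 in 20 groups, and 23 groups were looked at. Depdc5 and Mink1 stayed called by limma whichever of the 12 libraries was left out, while Vps8 and Cbfa2t3 stayed called in 3 of 12 and Abhd18 and R3hdm2 in 1 of 12.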

How the results depend on the processing

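The alternatives that merged ends within 24 bases, kept members with no end at the stop codon, or kept nodes in 1 block for transcript counts were chosen after seeing the data. The 487 Psi shifts towards proximal outnumbered the 296 towards distal under every alternative run: 289 and 157 past 0.10, 692 and 463 past 0.02, 185 and 110 with a mean log2 CPM above 5, 419 and 185 after merging, and 487 and 234 by distance as a share of the span. Nagk reversed to 3.05 bases by distance, 0.0054 by its most distal node and 0.0053 after merging, and Aen to -14.5 bases, -0.0057 and -0.0057. The hexamer shares kept their order: 25.9%, 44.4% and 61.9% from most proximal to most distal with AATAAA alone, and 35.2%, 58.2% and 79.2% in the last 60 bases.

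Of transcript position calls, 29 towards proximal and 12 towards distal, the logit left 18 and 5 and distance in bases 21 and 20. Leaving out single libraries gave 15 to 26 and 5 to 12. For Ag against Naive, 21 and 11 became 13 and 9 with the logit, 18 and 20 in bases, and 16 to 23 and 7 to 16 with a library left out (7 towards distal without Ag replicate 3). For single genes, 114 values of position kept their call and 92 lost it. For expression, 593 kept it and 19 lost it, and counts stayed within 425 to 485 lower and 548 to 606 higher when a library was left out.

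Replicate numbers are shared by the groups, but nothing in the labels says that they pair animals. Same-numbered deviations correlated at 0.30, 0.15, 0.11, -0.04 and -0.02, and libraries of 2 of the 5 numbers matched their own number best. With the replicate block, 3 members were called towards proximal and 1 towards distal (8 and 7 in Ag against Naive), and 587 higher and 463 lower in expression. Of the genes named above as called in Ag+Costim against Ag, Depdc5 and Rtn4 kept their call with the block and the others lost it. Mink1, Whsc1l1 and Klf13 then had limma adjusted p-values of 0.060, 0.064 and 0.064. Psi has no replicates and its read depth is unknown, which limits every Psi statement to 1 value per group.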
